A study of Mus musculus with 3 samples.

Results

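The 30 genes described here are autosomal imprinted genes of the mouse, taken as a given list. They comprised 26 protein-coding genes and the non-coding H19, Airn, Meg3 and Kcnq1ot1, among 30751 annotated protein-coding, lincRNA and antisense genes. An imprinted gene is transcribed mainly from the copy inherited from the father (paternally expressed) or mainly from the copy inherited from the mother (maternally expressed). Most imprinted genes lie in clusters controlled by a germline differentially methylated region (germline DMR), a CpG-rich stretch whose DNA methylation is laid down in the egg or the sperm and is then held on that copy by the zinc finger protein ZFP57 and its partners. In several clusters the unmethylated copy of the DMR is the promoter of a long non-coding RNA that keeps neighbouring genes silent on the same chromosome. By textbook assignment 19 of the 30 genes were paternally and 11 maternally expressed. A maternally methylated germline DMR at or near a start was assigned to 13 genes and not to the other 17. Positions of the DMRs were not used, so a peak of such a gene need not lie at its DMR.

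Open chromatin was mapped by Omni-ATAC-seq, an assay in which the Tn5 transposase tags exposed DNA for sequencing. The cells were hair follicle stem cells (HFSCs) sorted as CD34+CD49f+Sca-1- cells from dorsal skin of mice aged 6 months, with the hair cycle in telogen, the resting phase. The Msx2-WT group held 1 library from C57BL/6J mice matched for hair cycle, and the Msx2-KO group held 2 libraries (replicates 1 and 2) from mice homozygous for a neomycin cassette inserted at an NdeI site ahead of the second exon of Msx2, which encodes a homeobox transcription factor. The labels do not say whether the Msx2-KO replicates came from separate animals. The batch given in the sample labels was one for Msx2-WT and another for both Msx2-KO libraries, so these groups differ in batch as well as genotype, the effects cannot be told apart, and genotypes were not tested against each other. Peak names in both Msx2-KO lists carried the letters cKO, and those of replicate 1 carried a library number other than its label. The labels were followed, and each value below is given per library so that either list can be set aside. The peaks do not separate the parental copies, so parent of origin was not measured here, and fewer cells with an open site cannot be told apart from a smaller opening per cell.

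A peak was a summit with a −log10 q above 2.0 in its own library, and a gene was counted as having a promoter peak when such a summit lay within 1500 bases of any of its starts in the basic set of GENCODE M21 on GRCm38. Tag numbers (reads counted at the summit) were solved from the deposited values and divided by the background of the library. This was the commonest local background among the listed summits of that library, a floor set by the whole library and not measured away from peaks. Msx2-WT had a background of 1.74 tags, and Msx2-KO replicates 1 and 2 had 0.476 and 0.79, while the lowest tag number past the threshold was 9, 5 and 6. Overlapping peaks of the libraries were joined into regions, so the peaks within a region need not all overlap each other. Over the regions open in all 3 libraries the median summit held 23, 11 and 24 tags, so background and signal did not rank the libraries alike. Of 10 HFSC markers, 7, 7 and 9 had a promoter peak in Msx2-WT, Msx2-KO replicate 1 and replicate 2. The same held for 3, 2 and 3 of 5 melanocyte markers (Dct and Pmel in every library), 2, 1 and 3 of 5 fibroblast markers, 0, 1 and 2 of 4 endothelial markers and 0, 0 and 0 of 5 leukocyte markers. The part of other skin cells in the values below was not tested. Msx2 itself had a promoter peak in all 3 libraries, with 15, 9 and 16 tags, which gives no check of the labels.

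Promoter peaks were found for 7 of the 30 imprinted genes in Msx2-WT, or 23.3% (95% Wilson interval 11.8 to 40.9), compared with 38.2% of all genes. In Msx2-KO replicate 1 the number was 6, with an interval of 9.51 to 37.3%, compared with 30.5% of all genes. In Msx2-KO replicate 2 it was 15, with an interval of 33.2 to 66.8%, compared with 43.9% of all genes. All 3 intervals, which cover counting error only, contained the share of all genes. Whether the members' share lay above or below that of all genes changed with the setting, as given below. Among the 26 protein-coding members 5, 4 and 13 had a promoter peak, whereas 47.2%, 38.0% and 53.7% of all protein-coding genes did. For these the intervals of Msx2-WT (8.51 to 37.9%) and replicate 1 (6.15 to 33.5%) lay below the share of all protein-coding genes, and that of replicate 2 (32.1 to 67.9%) contained it. Of the 15 peaks in replicate 2, 4 held 6 tags, the lowest number that passed. At a stricter −log10 q of 5.0 or more, 3, 3 and 5 members had a promoter peak, or 10.0%, 10.0% and 16.7%, beside 31.2%, 20.2% and 35.5% of all genes. Among genes with a promoter peak, the median tags over background were 9.78, 15.8 and 11.4 for the members and 13.8, 25.2 and 25.3 for all genes.

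The members fell into a few patterns over the libraries. Airn, Igf2r, Kcnq1ot1, Ube3a and Zrsr1 had a promoter peak in all 3 libraries, a pattern shared by 28.1% of all genes. Asb4 was the only member called in the pair of Msx2-KO libraries without Msx2-WT (2.03% of all genes), and Impact alone had one only in Msx2-WT (2.11%). The Asb4 call was lost at a −log10 q of at least 5.0, with every listed summit, with lists of equal length, after thinning to the shallowest background and with a window of 500 bases, and in 3 of these Igf2r and Zrsr1 had the pattern instead. The Impact call was lost after thinning, with windows of 500 and 3000 bases, by overlap of the peak interval and with the starts of the full annotation. Peg3 had one in every library except Msx2-KO replicate 1 (7.94%), and Grb10, Peg10, Phlda2, Plagl1, Sgce, Slc22a18, Snrpn and Zim1 had one in replicate 2 alone (5.83%). No member had the patterns of Msx2-KO replicate 1 alone (0.26% of all genes) or of Msx2-WT with replicate 1 only (0.137%). The remaining 14 had none in any library, as did 53.6% of all genes: Ascl2, Ddc, Dio3, Dlk1, H19, Igf2, Kcnq1, Magel2, Meg3, Mest, Nap1l5, Ndn, Nnat and Rtl1.

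**Figure D1:**
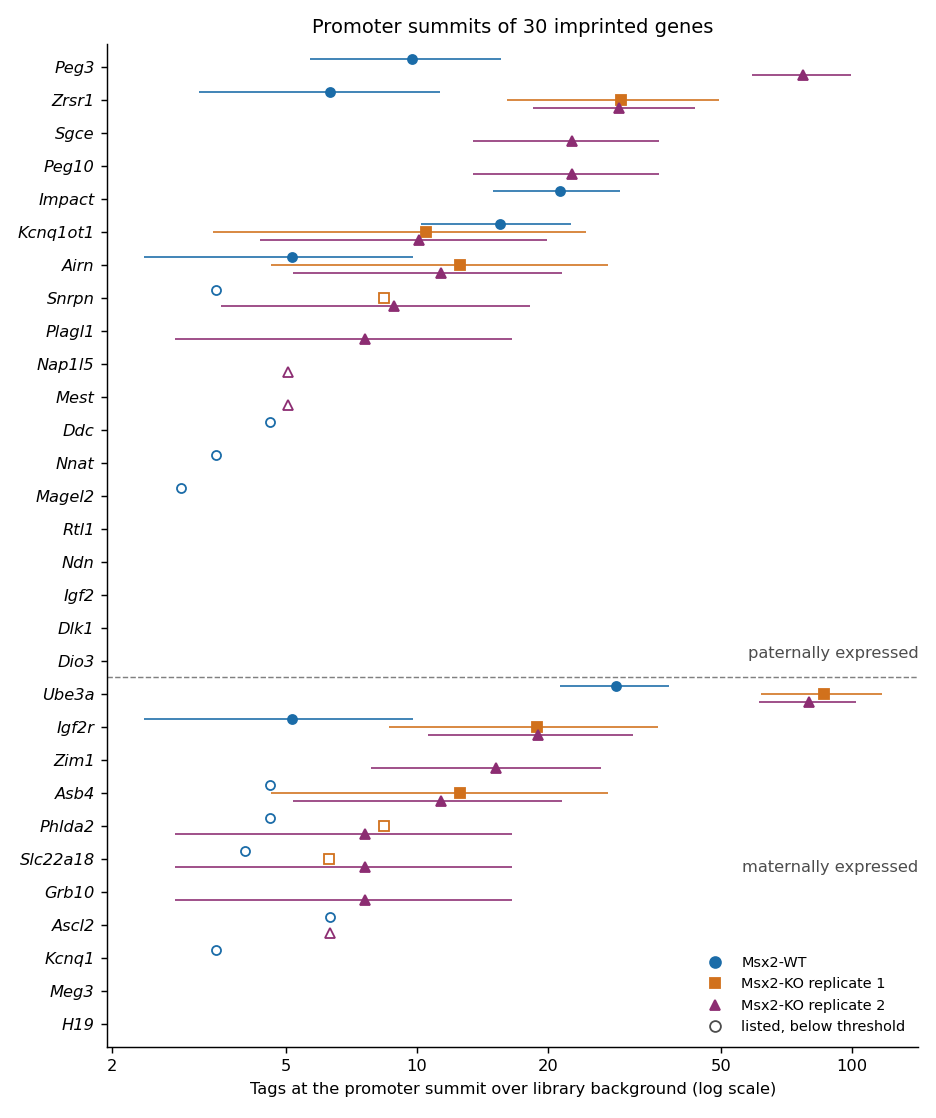
Tags at the highest promoter summit over the background of the library (log axis) for each of the 30 imprinted genes, with 95% Poisson intervals on the filled symbols; filled symbols are peaks, open symbols are summits listed below the threshold, and rows with no symbol had no listed summit within 1500 bases of a start. Ube3a and Peg3 reach the highest values, and 8 members have a filled symbol from Msx2-KO replicate 2 alone.

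Ube3a, which encodes an E3 ubiquitin ligase that is expressed from the maternal copy in neurons, had the tallest promoter summit of the maternally expressed members. Ube3a (ENSMUSG00000025326.12) spans 59228750 to 59311536 of chromosome 7 on the plus strand. Msx2-WT had 50 tags at its summit, Msx2-KO replicate 1 had 41 and replicate 2 had 63, with 95% Poisson intervals of 37.1 to 65.9, 29.4 to 55.6 and 48.4 to 80.6. Over background these were 28.8, 86.1 and 79.7, above 88.8%, 95.2% and 94.9% of all genes with a promoter peak. The 3 summits lay between 68 and 98 bases upstream of the start. The open stretch ahead of the start, chr7:59228504-59228749 (plus strand, GRCm38 reference, summit of Msx2-KO replicate 2 at 59228653), held 24 CpG in 246 bases. Capitals mark a match to the YY1 motif GCCATNTT, read here on the other strand; YY1 is a zinc finger transcription factor.
Ube3a promoter: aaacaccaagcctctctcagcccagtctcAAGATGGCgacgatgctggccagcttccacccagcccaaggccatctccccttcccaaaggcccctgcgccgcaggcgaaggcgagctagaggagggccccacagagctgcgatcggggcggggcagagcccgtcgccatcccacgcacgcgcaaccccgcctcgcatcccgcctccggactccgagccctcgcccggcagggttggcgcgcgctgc

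Igf2r and Airn overlap on opposite strands of chromosome 17, and both had a promoter peak in every library. Igf2r encodes the receptor that clears the growth factor IGF2 and is maternally expressed, and Airn is the paternally expressed antisense RNA that silences it in cis. At the Igf2r start (ENSMUSG00000023830.14, 12682406 to 12769664) Msx2-WT and Msx2-KO replicate 1 had 9 tags each and replicate 2 had 15, at summits 42 to 103 bases upstream. Near the Airn start (ENSMUSG00000078247.4, 12741311 to 12860136), which lies in intron 2 of Igf2r, the highest summits held 9, 6 and 9 tags. The 9 tags of Msx2-WT for each gene were the lowest number that passed in that library, with a −log10 q of 2.31. In replicate 1 the lowest passing number was 5, so the Airn call was also near the limit there. The Airn summits lay 820 and 788 bases upstream in Msx2-WT and replicate 1 and 781 bases downstream in replicate 2. In replicate 2 a second summit of 9 tags at 12741483 lay closer to the start, in a peak (12740517 to 12742469) that spanned it. The peaks of Msx2-WT (12740418 to 12740896) and replicate 1 (12740376 to 12741094) ended ahead of the Airn start. Inside Airn a further region in its first intron (12793860 to 12794818) was open in all 3 libraries with 17, 14 and 18 tags, more than at either start. A region in the first introns of both genes (12750938 to 12751924) held 8 tags in Msx2-WT, below the threshold, 8 in replicate 1 and 21 in replicate 2.

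Kcnq1ot1, the paternally expressed antisense RNA that starts within intron 11 of the potassium channel gene Kcnq1, had its tallest summit in Msx2-WT. Kcnq1ot1 (ENSMUSG00000101609.2) spans 143203458 to 143296549 of chromosome 7 on the minus strand. Tags at the summit numbered 27 in Msx2-WT and 5 and 8 in Msx2-KO replicates 1 and 2, with intervals of 17.8 to 39.3, 1.62 to 11.7 and 3.45 to 15.8. Over background these were 15.5, 10.5 and 10.1, and the counting intervals on that scale overlapped (10.2 to 22.6, 3.41 to 24.5 and 4.37 to 19.9). The window from the start to 266 bases upstream, chr7:143296550-143296815 (minus strand), is shown because it holds the summits of Msx2-WT and replicate 2 (that of replicate 1 lay 8 bases downstream of the start), and it held none of the motifs searched.
Kcnq1ot1 start: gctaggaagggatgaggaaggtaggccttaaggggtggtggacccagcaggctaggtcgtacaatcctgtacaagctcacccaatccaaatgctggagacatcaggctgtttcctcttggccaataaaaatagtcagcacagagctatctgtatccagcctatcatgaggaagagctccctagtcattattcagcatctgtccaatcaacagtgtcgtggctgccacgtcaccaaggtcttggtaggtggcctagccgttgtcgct

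Zrsr1, a paternally expressed splicing factor gene that sits inside Commd1, had a summit of 11 tags in Msx2-WT, whereas those of Msx2-KO replicates 1 and 2 held 14 and 23, between 22 bases upstream and 252 bases downstream of the start. Over background these were 6.33, 29.4 and 29.1. Asb4, a maternally expressed gene for an ankyrin repeat protein of the SOCS box family, passed the threshold in the Msx2-KO libraries alone. Its summits held 6 tags in Msx2-KO replicate 1 (2.20 to 13.1) and 9 in replicate 2 (4.12 to 17.1), and the Msx2-WT list held a summit of 8 tags with a −log10 q of 1.63, just below the threshold. The libraries thus differed in the call more than in tags, though over background the values were 4.6 in Msx2-WT, 12.6 in replicate 1 and 11.4 in replicate 2. The stretch chr6:5382652-5382951 (plus strand) covers all 3 summits, 491 to 609 bases upstream of the start, and held 6 CpG and none of the motifs searched.
Asb4 promoter: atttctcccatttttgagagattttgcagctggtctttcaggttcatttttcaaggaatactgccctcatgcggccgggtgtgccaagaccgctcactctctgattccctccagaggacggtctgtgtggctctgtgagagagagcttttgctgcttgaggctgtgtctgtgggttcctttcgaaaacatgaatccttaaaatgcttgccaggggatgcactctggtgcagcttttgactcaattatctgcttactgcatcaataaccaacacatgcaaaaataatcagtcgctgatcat

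The tallest summits of Peg3, Peg10 and Impact, all paternally expressed genes assigned a germline DMR, lay in the first intron just outside the promoter window. In Peg3, which encodes a zinc finger protein, the highest summit held 21 tags in Msx2-WT, whereas Msx2-KO replicates 1 and 2 had 54 and 85. These were 12.1, 113 and 108 times background, at 1976, 1804 and 1888 bases downstream of the start. The Peg3 promoter peaks of Msx2-WT (17 tags) and replicate 2 (61 tags) were lower summits within the same open region, which also lies within 3000 bases of a start of the neighbouring gene Usp29. In Peg10, a gene derived from a retrotransposon and needed in the placenta, the summits held 14, 29 and 34 tags at 1952, 1863 and 1888 bases downstream. In replicate 2 alone the peak (4746930 to 4749455) reached the divergent start of Sgce, the epsilon-sarcoglycan gene, at 4747207. The peaks of Msx2-WT and replicate 1 began at 4749068 and 4747961, short of that start. The same tags are counted for both genes. The highest promoter summit of both genes in replicate 2 held 18 tags, 768 bases downstream of the Peg10 start and 967 bases upstream of the Sgce start. A further summit of 16 tags in the same peak, at 4747211, lay next to the Sgce start. In Impact, which encodes a regulator of the stress kinase GCN2, they held 55, 36 and 70 tags at 2271, 2248 and 2064 bases downstream. The only promoter peak of Impact, in Msx2-WT, was a lower summit of 37 tags 1452 bases downstream, in the same region. With the window widened to 3000 bases 10, 10 and 16 members had a summit near a start (41.1%, 32.5% and 46.9% of all genes), and Impact, like Peg3, Peg10 and Sgce, then had one in every library.

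**Figure D2:**
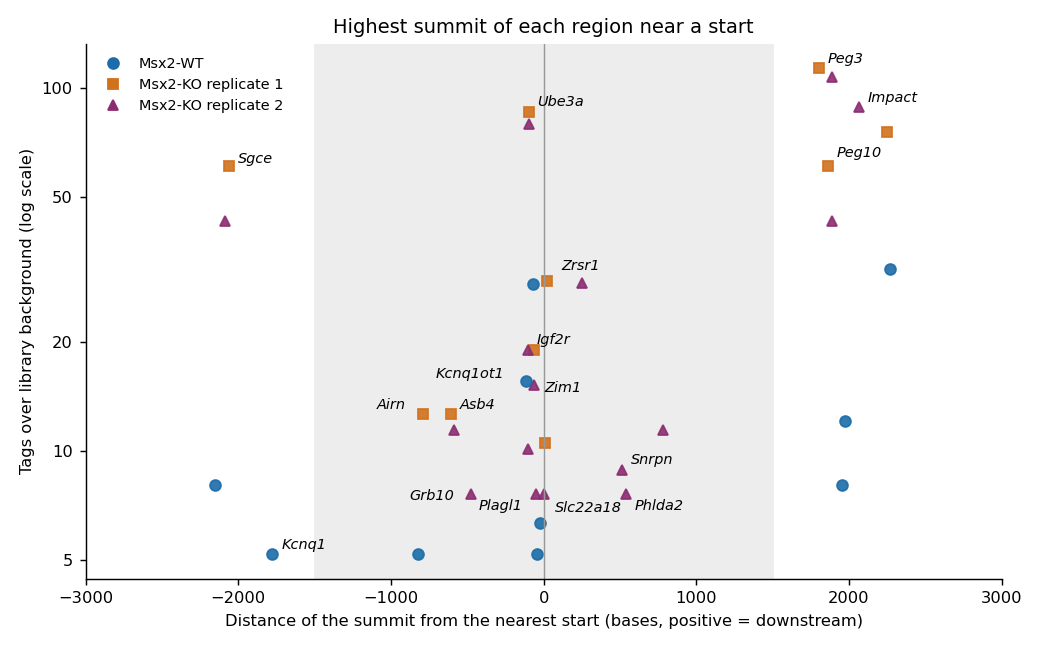
Distance of the highest summit of each region from the nearest start (positive is downstream) against tags over background (log axis), for regions within 3000 bases of a start; the grey band is the promoter window, and Peg10 and Sgce share a region drawn at its distance from each start. Peg3, Peg10 and Impact lie about 2 kb downstream of the start in every library, outside the window.

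The intron 1 region of Peg3 (6727458 to 6729720 on chromosome 7, 2263 bases) held 10 matches to the YY1 motif GCCATNTT, searched on both strands. In Msx2-WT it comprised separate peaks at 6727458 to 6728921 and 6729211 to 6729720. Regions open in all 3 libraries had a median length of 1156 bases, and 290 were at least as long as that of Peg3. The counts that follow are not matched for length. Of 13075 regions open in all 3 libraries, 20.7% held at least 1 such match and 3 held 10 or more. The others were a region on chromosome 4 (3089607 to 3091153) with no listed gene within 3000 bases and a region on chromosome 9 (3034633 to 3035440). All 10 matches of Peg3 lay in the same orientation relative to the gene. The 300 bases around the summit of Msx2-KO replicate 2, chr7:6728383-6728682 (minus strand, the strand of the gene), held 2 of them, and capitals mark these and a ZFP57 match TGCCGC that reads on the other strand.
Peg3 intron 1: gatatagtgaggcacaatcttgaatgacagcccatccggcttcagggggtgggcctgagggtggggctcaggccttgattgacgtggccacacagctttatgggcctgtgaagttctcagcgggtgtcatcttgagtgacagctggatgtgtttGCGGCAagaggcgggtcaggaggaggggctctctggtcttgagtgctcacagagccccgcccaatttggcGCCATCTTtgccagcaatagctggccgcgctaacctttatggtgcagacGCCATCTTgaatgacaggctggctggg
The matching 300 bases of Peg10, chr6:4749145-4749444 (plus strand), held 14 CpG and none of the motifs.
Peg10 intron 1: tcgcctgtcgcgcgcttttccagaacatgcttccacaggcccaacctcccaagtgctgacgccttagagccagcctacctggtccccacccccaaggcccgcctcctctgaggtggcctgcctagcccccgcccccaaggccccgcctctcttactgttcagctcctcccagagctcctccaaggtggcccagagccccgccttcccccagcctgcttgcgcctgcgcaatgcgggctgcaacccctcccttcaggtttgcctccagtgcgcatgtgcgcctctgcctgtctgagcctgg

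The ZFP57 motif TGCCGC was denser in the start regions of germline DMR genes than in the other regions counted. ZFP57 is known to act at germline DMRs, so motif and gene class were not chosen independently, and the density adds no support to the assignment. In the 9 distinct open start regions of these genes there were 37 matches in 15415 bases, or 2.40 per kb, and 8 of the 9 regions held at least 1, as did 4 of the 7 start regions of the other members and 38.6% of all regions open in the 3 libraries. In the 7 start regions of the other members there were 4 matches in 6586 bases, or 0.607 per kb, and over all regions open in the 3 libraries there were 0.512 per kb. Snrpn held 8 matches, Airn 7, and Peg3, Plagl1 and Impact 5 each, whereas Zrsr1 held none. Within 300 bases centred on the summit the motif was found for 6 of 17 members with a start region, and 23.0%, 23.9% and 23.9% of promoter summits of all genes held it in the 3 libraries. The corresponding shares for YY1 were 2 of 17 members and 9.54%, 9.51% and 8.74% of promoter summits. These matches are letters in the reference sequence, and binding was not measured. The ZFP57 motif itself holds a CpG, and the regions compared were not matched for CpG content.

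Neither parental class had the higher share in every library. A promoter peak was present for 5, 3 and 8 of 19 paternally expressed genes and for 2, 3 and 7 of 11 maternally expressed genes in Msx2-WT, Msx2-KO replicate 1 and replicate 2. The shares were 26.3% (11.8 to 48.8), 15.8% (5.52 to 37.6) and 42.1% (23.1 to 63.7) against 18.2% (5.14 to 47.7), 27.3% (9.75 to 56.6) and 63.6% (35.4 to 84.8), with overlapping intervals. Genes assigned a germline DMR had a peak in 5, 3 and 9 of 13 cases and the other members in 2, 3 and 6 of 17. Within 3000 bases the numbers were 7, 7 and 10 of 13 against 3, 3 and 6 of 17. At this window the shares were 53.8% (29.1 to 76.8), 53.8% (29.1 to 76.8) and 76.9% (49.7 to 91.8) against 17.6% (6.19 to 41.0), 17.6% (6.19 to 41.0) and 35.3% (17.3 to 58.7), the intervals overlapped in every library, and the shares of all genes were 41.1%, 32.5% and 46.9%. The DMR genes had the higher share in each library at both windows, but the order rested on the threshold. Within 1500 bases at a −log10 q of at least 5.0, 2, 1 and 2 of the 13 DMR genes and 1, 2 and 3 of the other 17 had a peak, so the DMR genes had the lower share in both Msx2-KO libraries. They also had the lower share in replicate 2 with lists of equal length (2 of 13 and 3 of 17) and in Msx2-WT after thinning (1 of 13 and 2 of 17). Only Mest, Nnat and Nap1l5 of the DMR genes had no peak within 3000 bases of a start in any library.

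**Figure D3:**
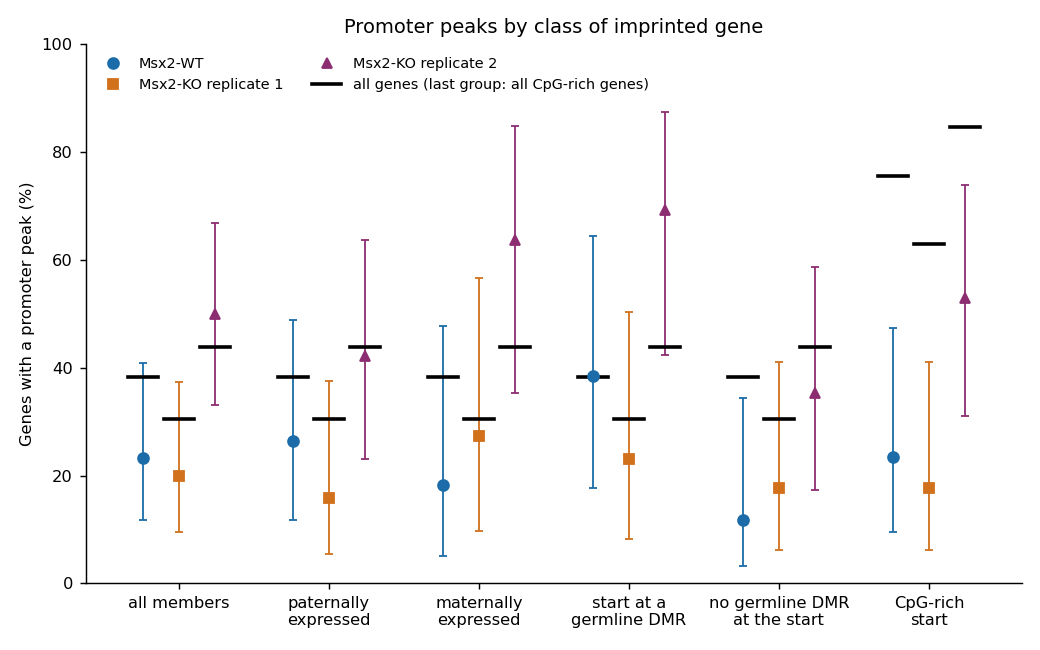
Share of genes with a promoter peak by class of imprinted gene (symbols with 95% Wilson intervals) and over all genes of the same library (black bars; in the last group, all genes with a CpG-rich start). The germline DMR groups follow the textbook assignment of genes and not measured positions. Paternally and maternally expressed genes overlap in each library, and members with a CpG-rich start lie below the black bar in all 3.

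CpG-rich promoters are usually open in most cell types. Of the members, 17 had a CpG-rich start (an observed to expected CpG ratio of at least 0.6 and at least 50% G+C in 1000 bases), a split made after the promoter counts were seen. A promoter peak was present for 4 of these in Msx2-WT, or 23.5% (9.56 to 47.3), compared with 75.5% of all genes with such a start. In Msx2-KO replicate 1 it was present for 3, or 17.6% (6.19 to 41.0), compared with 63.0%, and in replicate 2 for 9, or 52.9% (31.0 to 73.8), compared with 84.6%. In each library the interval lay below the share of all CpG-rich genes. With the window of 3000 bases the members were at 41.2%, 35.3% and 52.9%, compared with 76.9%, 64.2% and 85.7%. For the 13 members without a CpG-rich start the numbers were 3, 3 and 6, or 23.1%, 23.1% and 46.2%, compared with 15.3%, 10.4% and 18.8% of all such genes, and the lower bound (8.18, 8.18 and 23.2%) lay above the share of all genes in replicate 2 alone. By the basic starts, CpG-rich members without a promoter peak in any library were Igf2, the insulin-like growth factor, Dlk1, a NOTCH ligand relative, Dio3, which inactivates thyroid hormone, Ascl2, a basic helix-loop-helix transcription factor, the channel gene Kcnq1, and Mest, Nnat and Nap1l5. With the starts of the full annotation Igf2 and Kcnq1 had a promoter peak in Msx2-WT.

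Most of the members with no promoter peak had few or no listed tags there. No summit at all was listed within 1500 bases of a basic start of H19, Igf2, Meg3, Dlk1, Rtl1, Dio3 or Ndn in any library. Below the threshold, Msx2-WT listed 11 tags at Ascl2, 8 at Ddc, which encodes aromatic L-amino acid decarboxylase, 6 at Kcnq1, 6 at Nnat and 5 at Magel2, a MAGE family gene. Msx2-KO replicate 2 listed 5 tags at Ascl2, 4 at Mest and 4 at Nap1l5. Replicate 1, the shallowest library, listed none at these genes.

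The low peaks of Msx2-KO replicate 2 were near the limit of detection. The 4 summits with 6 tags (2.20 to 13.1) belonged to Plagl1, a zinc finger transcription factor gene, Grb10, whose adaptor protein dampens insulin receptor signalling, Phlda2, which restrains placental growth, and the transporter gene Slc22a18. The summit of Snrpn, which encodes a small nuclear ribonucleoprotein subunit, held 7 tags. At Phlda2 the other libraries listed 8 (Msx2-WT) and 4 (replicate 1) tags below the threshold, at Slc22a18 7 and 3, and at Snrpn 6 and 4. At Plagl1 and Grb10 they listed none. The start of Zim1, a zinc finger gene next to Peg3, held 12 tags in replicate 2 (6.20 to 21.0) and no listed summit in the other libraries. Scaled by the regions open in all libraries or by background, 12 tags correspond to 11.5 or 26.4 in Msx2-WT and 5.5 or 7.23 in replicate 1, all past the lowest number that passed there.

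Regions open in every library allow tag numbers to be set side by side. The tags over background of each were divided by the median of the same library over the 13075 regions open in all 3, where the median was 13.2, 23.1 and 30.4 times background in Msx2-WT, Msx2-KO replicate 1 and replicate 2. The log2 ratio between the Msx2-KO replicates had an SD of 0.51 over these regions. Members held 12 of the regions, among them a region in intron 15 of Kcnq1 whose Msx2-WT and replicate 2 peaks did not overlap. Of these, 3 were at least 2-fold higher in both Msx2-KO libraries than in Msx2-WT (4.86% of all 13075 regions), 1 was at least 2-fold higher in Msx2-WT (3.24%) and 8 were neither, whereas by the deposited fold over local background none of the 12 passed 2-fold in both. The relative tags of the Peg3 region were 0.913 in Msx2-WT, 4.91 in replicate 1 and 3.54 in replicate 2, log2 ratios of 2.43 (95% counting interval 1.68 to 3.23) and 1.96 (1.25 to 2.72). Of all regions, 0.145% were as high in both Msx2-KO libraries. The Peg10 region was at 0.609, 2.64 and 1.42, log2 ratios of 2.12 (1.15 to 3.15) and 1.22 (0.28 to 2.23), and 2.38% of regions were as high. The Zrsr1 region was at 0.478, 1.27 and 0.958, log2 ratios of 1.41 (0.17 to 2.70) and 1.00 (-0.09 to 2.19), so replicate 2 stood at the limit of 2-fold and 4.83% of regions were as high. The Kcnq1ot1 region was at 1.17, 0.455 and 0.333, log2 ratios of -1.37 (-3.10 to 0.03) and -1.82 (-3.17 to -0.64), and 0.971% of regions were as low. The log2 ratio of replicate 2 over replicate 1 was -0.47 for Peg3, -0.90 for Peg10, -0.41 for Zrsr1 and -0.45 for Kcnq1ot1. With 1 Msx2-WT library there is no spread between wild-type samples to set beside these ratios, and batch shares the same split.

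These differences rested on the scaling, as other scalings chosen after seeing the data showed. The deposited fold over local background at the same summits, which adds 1 to tags and to background, was 3.49, 5.96 and 5.26 for Peg3 and 5.48, 8.18 and 6.24 for Peg10. These were 1.71 and 1.51 times Msx2-WT for Peg3 and 1.49 and 1.14 times for Peg10. For Zrsr1 it was 3.72, 7.09 and 8.18, or 1.91 and 2.20 times Msx2-WT, and for Kcnq1ot1 9.55, 4.07 and 5.03, or 0.426 and 0.526 times. On this scale no member region was at least 2-fold higher in both Msx2-KO libraries or in Msx2-WT, and 0.467% and 0.191% of all 13075 regions were. With the fold divided by its median in each library, Kcnq1ot1 was at least 2-fold higher in Msx2-WT (0.469 and 0.448 times) and Peg10 in replicate 2 stood at 0.970 times Msx2-WT, so its direction turned. By tags over library background alone the median region was 0.98 and 1.20 higher in the Msx2-KO libraries on the log2 scale, and 11 of the 12 member regions and 42.2% of all regions were at least 2-fold higher in both.

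The remaining 8 regions stayed within 2-fold in at least 1 Msx2-KO library. The Ube3a start was at 2.17, 3.73 and 2.62 and the Impact region at 2.39, 3.27 and 2.92, and these were the highest relative values of any member region in Msx2-WT. The start of Igf2r was at 0.391, 0.818 and 0.625. The region near the Airn start was at 0.391, 0.545 and 0.375, with summits upstream of the start in Msx2-WT and replicate 1 and downstream in replicate 2.

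**Figure D4:**
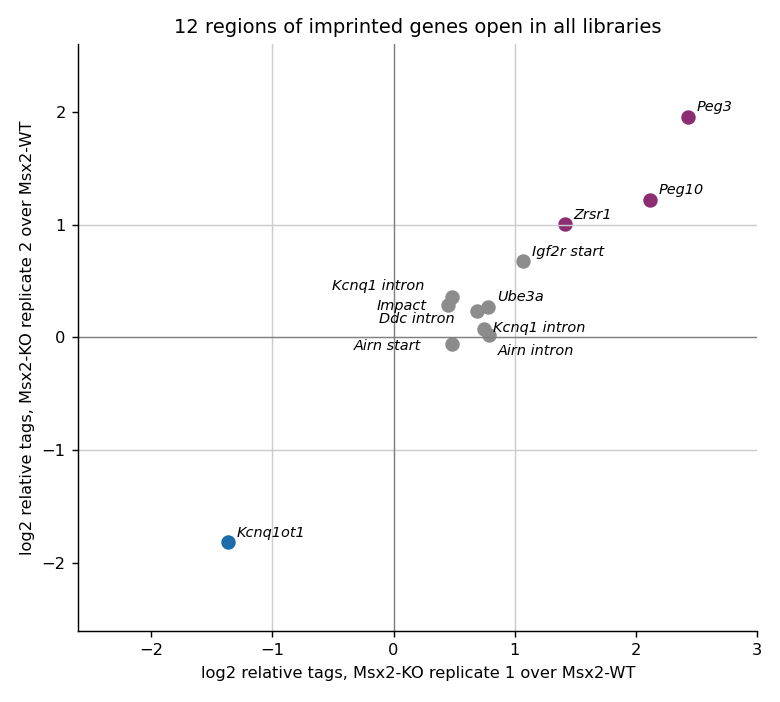
Log2 ratio of relative tags (tags over background divided by the median of the library) of each Msx2-KO library over Msx2-WT for the 12 regions of imprinted genes open in all 3 libraries; grey lines at -1 and 1 mark 2-fold, and the Peg10 point is shared with Sgce. Peg3, Peg10 and Zrsr1 lie at or above 1 on both axes and Kcnq1ot1 below -1 on both, calls that the deposited fold over local background does not give (divided by its median it turns Peg10 in replicate 2 and keeps Kcnq1ot1), and the other 8 lie within 2-fold on at least 1 axis.

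Outside the windows around their own starts, 11, 9 and 12 of the 30 members had a peak in the gene body. The shares of all genes were 19.1%, 11.7% and 21.3%. Starts of other genes were not left out. The Airn start region thus counted for Igf2r, the Igf2r start region for Airn and the Kcnq1ot1 start region for Kcnq1. The intron 1 regions of Peg3, Peg10 and Impact described above also counted. Per 100 kb of gene body there were 1.21, 1.00 and 1.34 peaks in the members and 0.963, 0.509 and 1.22 in all genes. A peak inside overlapping genes counted for each of them. Ddc had a peak in intron 10 in all libraries, with 13, 10 and 16 tags, and another in intron 12 in Msx2-WT (12 tags) and Msx2-KO replicate 2 (11 tags). Kcnq1 had a region in intron 15 open in all libraries with 9, 6 and 12 tags. Another region of this intron held 10, 8 and 11 tags. There the peaks of Msx2-WT (143407345 to 143408095) and replicate 2 (143408591 to 143409098) did not overlap and were joined through that of replicate 1. Msx2-WT had a further peak of 9 tags 1777 bases upstream of the Kcnq1 start. Within Plagl1, 3.58 kb upstream of an internal start, Msx2-WT had a peak of 15 tags that neither Msx2-KO list held. In intron 3 of Asb4, replicate 2 had a peak of 9 tags and replicate 1 another of 5 tags, and Msx2-WT listed neither. Igf2 had a single peak, in exon 4, with 12 tags in Msx2-WT alone, and Zim1 one in intron 5 with 19 tags in Msx2-WT alone. Scaled to the Msx2-KO libraries by the regions open in all 3, or by background, 19 tags correspond to 9.09 or 5.2 in replicate 1 and 19.8 or 8.64 in replicate 2, all at or above the lowest numbers that passed there. A further region in intron 2 of Snrpn (60013236 to 60014314) had 5 tags in replicate 1 and 12 in replicate 2 and none listed in Msx2-WT.

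Between H19 and Igf2, the non-coding RNA and growth factor genes that share enhancers on chromosome 7, Msx2-WT had a peak 3.71 kb upstream of the H19 start, where the control region that binds the insulator protein CTCF on the maternal copy is known to lie. It spanned 142581716 to 142582066 with 10 tags (4.80 to 18.4), and neither Msx2-KO list held a summit there. Scaled in the same 2 ways, 10 tags correspond to 4.78 or 2.74 in Msx2-KO replicate 1, under its lowest passing number, and to 10.4 or 4.55 in replicate 2, above it by one scaling and under it by the other, so a difference was not detectable in replicate 1 and depended on the scaling in replicate 2. The peak held a match to the CTCF motif of the H19 control region, 14 bases searched on both strands. The motif was written as in this control region, so a match here was fixed in advance and its rarity elsewhere adds no support. Of 29817 Msx2-WT peaks, 12 (0.0402%) held the motif, and no start region of a member held one. The H19 upstream peak also held 3 ZFP57 matches. The stretch chr7:142581753-142582052 is shown on the minus strand, the strand of H19, with the motif matches in capitals; the first run of capitals is the CTCF match overlapped by a ZFP57 match, and the shorter runs are ZFP57 matches.
H19 upstream: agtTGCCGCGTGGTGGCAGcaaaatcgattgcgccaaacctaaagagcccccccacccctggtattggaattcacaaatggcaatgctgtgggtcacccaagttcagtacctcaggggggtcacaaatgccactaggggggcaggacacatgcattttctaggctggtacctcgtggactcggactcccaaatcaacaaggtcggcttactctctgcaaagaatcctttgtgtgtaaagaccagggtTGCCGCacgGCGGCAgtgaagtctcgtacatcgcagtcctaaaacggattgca
Farther out, a region 51.9 kb upstream of H19 (51.7 kb in replicate 2) was open in all libraries, with 21, 7 and 10 tags. In the interval between Dlk1 and Meg3, where the paternally methylated control region of that cluster lies, no summit passed the threshold in any library. Msx2-WT listed 5 summits there, and the Msx2-KO libraries listed 0.

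The loci differed in their density of peaks. The Dlk1-Dio3 locus, 828.3 kb with Dlk1, Meg3, the retrotransposon-derived Rtl1 and Dio3, held 2, 0 and 1 peaks, or 0.241 (95% Poisson interval 0.029 to 0.872), 0 (up to 0.445) and 0.121 (0.003 to 0.673) per 100 kb. The genome-wide densities were 1.09, 0.679 and 1.36, above the interval in each library. The Snrpn-Ube3a locus, 3153 kb that also holds the MAGE family genes Ndn and Magel2, held 16, 6 and 8 peaks, or 0.507, 0.190 and 0.254 per 100 kb, with upper bounds of 0.824, 0.414 and 0.50 that again lay under the genome. Loci ran between the outermost gene ends without a flank, so the Ube3a promoter summits, just ahead of its start, were not counted. All Msx2-WT peaks of this locus lay between 59719743 and 59863126, inside none of Ube3a, Snrpn, Ndn and Magel2. The Peg10-Sgce-Asb4 locus was at 1.45, 0.923 and 1.32 per 100 kb and the Kcnq1 domain at 1.31, 0.746 and 1.68, close to the genome. The H19-Igf2 locus held 4, 1 and 1 peaks, or 4.38 (1.19 to 11.2), 1.10 and 1.10 per 100 kb. The Igf2r-Airn locus held 5, 5 and 6 peaks in 177.7 kb, or 2.81, 2.81 and 3.38 per 100 kb, with intervals that reached the genome-wide density in Msx2-WT (0.913 to 6.57) and replicate 2 (1.24 to 7.35) and not in replicate 1 (0.913 to 6.57). Mest, Nnat and Nap1l5 held no peak over the gene in any library. Most of these intervals rest on under 10 peaks, and the Dlk1-Dio3 result turned with the threshold in Msx2-WT. With everything listed this locus held 42, 1 and 18 summits, and its density in Msx2-WT was 5.07 per 100 kb (3.65 to 6.85), above the genome-wide 3.64, while replicates 1 and 2 stayed at 0.121 and 2.17, under 1.30 and 2.89, with an interval in replicate 2 (1.29 to 3.43) that reached the genome. The Snrpn-Ube3a locus remained under the genome in each library with everything listed, at 3.17, 0.952 and 2.13, although the intervals then reached the genome in Msx2-WT (2.58 to 3.86) and replicate 1 (0.642 to 1.36).

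**Figure D5:**
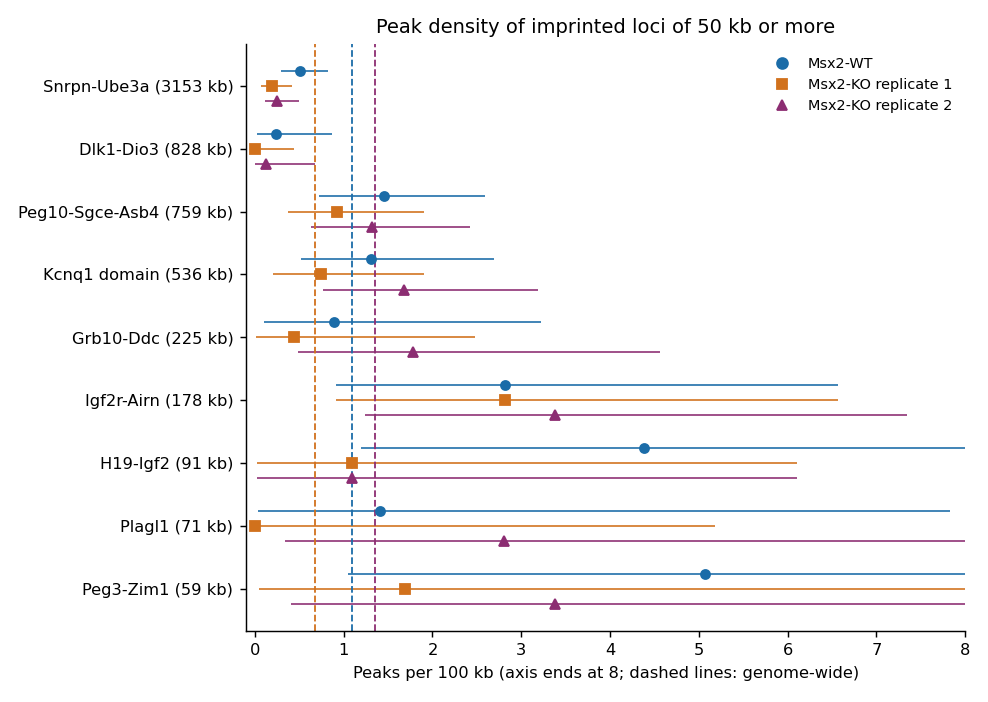
Peaks per 100 kb with 95% Poisson intervals for the imprinted loci of at least 50 kb, in each library; dashed lines are the genome-wide densities in the colour of the library, and intervals past 8 per 100 kb are cut at the axis. The Dlk1-Dio3 and Snrpn-Ube3a loci lie to the left of the dashed line of every library.

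Of 31 further imprinted genes outside the members (2 more on the list were not matched in the annotation), 11, 9 and 18 had a promoter peak. The shares were 35.5% (21.1 to 53.1), 29.0% (16.1 to 46.6) and 58.1% (40.8 to 73.6), and each interval contained the share of all genes (38.2%, 30.5% and 43.9%). Usp29, counted in Msx2-WT and replicate 2, has a start within 3000 bases of the Peg3 region and may not be separate from that member. Genes with a promoter peak in all 3 libraries included Gnas, which encodes a G protein subunit, and Copg2, Inpp5f, Mcts2, Tssc4, Nap1l4, Atp10a and Commd1. Cdkn1c, a cell cycle inhibitor gene of the Kcnq1 domain, lacked a promoter peak in Msx2-KO replicate 1 alone. Among 15 factors that set or hold imprints, 9, 8 and 11 had a promoter peak, or 60.0%, 53.3% and 73.3%. The intervals (35.7 to 80.2, 30.1 to 75.2 and 48.0 to 89.1%) contained the share of all genes in Msx2-WT and replicate 1. In replicate 2 the interval lay above that share but contained the 53.7% of all protein-coding genes. The maintenance methyltransferase gene Dnmt1, its partner Uhrf1, Trim28 and Setdb1, which act with ZFP57, and Ctcf, Tet2 and Tet3 had one in every library, Zfp445 in both Msx2-KO libraries and Smchd1 in Msx2-WT and replicate 2. Zfp57, Dnmt3l, Dppa3 and Tet1 had none in any library.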

How the data were processed

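The data were 3 peak lists of Omni-ATAC-seq, 1 per library, with 1 Msx2-WT and 2 Msx2-KO libraries grouped by the labels. The authors used Trimmomatic for trimming and BWA-MEM for alignment to GRCm38, removed mitochondrial reads, and called the peaks of each library separately in MACS2, with no shifting model and all duplicates retained, according to the methods. The MACS2 version is not given in the sources used here. Kept duplicates mean that tags are not independent molecules, and all intervals cover counting error only. The lists give no read totals.

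The authors deposited per summit a fold enrichment, which is a ratio of tags plus 1 to local background plus 1. Beside it the deposited lists carry the −log10 of the Poisson p and of its q. The deposited score, the whole part of 10 times −log10 p, was not used. The methods name a q-value of 0.01, whereas the lists reach a p-value of 0.01, so a −log10 q above 2.0 was applied, which kept 33654 of 104376 summits for Msx2-WT, 19450 of 36494 for replicate 1 of Msx2-KO and 41091 of 83318 for its replicate 2 on chromosomes 1 to 19, X and Y. Whole tag numbers were solved from fold and −log10 p for at least 99.9% of summits, a step tested on simulated data together with the promoter assignment. The commonest background of a library was used to scale it. That of Msx2-WT was 3.65 and 2.20 times those of Msx2-KO replicates 1 and 2.

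Starts came from the basic set of GENCODE M21, with a promoter window of 1500 bases as in the study. Gene body peaks lay between the gene ends and outside that window around the starts of the same gene. Sequence and motifs came from the GRCm38 reference. The members and gene lists were chosen with earlier results of these data known. Tag values are given for every member with a promoter peak. Sequence was to be shown for promoter summits that separate the libraries and for the tallest of each parental class, outside chromosome 18. The Kcnq1ot1, Peg10 and H19 sequences and the Peg3 intron window were added after their values were seen. Shares carry 95% Wilson and tags 95% Poisson intervals, and no p-value was computed. Alternatives were stricter and looser thresholds, lists of equal length, thinning to the shallowest background, windows of 500 and 3000 bases, the outermost start and interval overlap. Others left out Ddc, Ube3a and Grb10, or each Msx2-KO library in turn. Chosen after seeing the data were every start of the full annotation and 3 other scalings of the regions open in all libraries. Computation used scipy 1.17.1, statsmodels 0.14.6, pandas 2.3.3, numpy 2.4.6 and matplotlib 3.10.9 under Python 3.11.15.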

Additional observations from a re-analysis of the deposited data

How the results depend on the processing

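Counts are given in the order Msx2-WT, Msx2-KO replicate 1 and replicate 2 unless a library is named. Of the values recomputed for the member counts and medians, 112 stayed within 1.5 times the main value and 78 did not. The cause of the others was not tested beyond what each setting removes or adds. With a −log10 q of at least 5.0, 3, 3 and 5 members had a promoter peak, paternally expressed genes 2, 1 and 2, maternally expressed genes 1 in Msx2-WT and 3 in replicate 2, germline DMR genes 2, 1 and 2, and gene body peaks were found for 6 and 5 members in Msx2-WT and replicate 1. The pattern of both Msx2-KO libraries without Msx2-WT then held 2 members (Igf2r and Zrsr1, without Asb4) and that of Msx2-WT alone 2 (Kcnq1ot1 and Impact), and the median tags over background rose to 21.3, 29.4 and 29.1. With every deposited peak kept, Msx2-WT had 16 members with a promoter summit, 9 paternally and 7 maternally expressed, and 19 with a gene body summit, replicate 1 had 5 maternally expressed genes, the 2 patterns held 0 and 5 members, and the medians were 4.89 in Msx2-WT and 12.6 in replicate 1. The shares of members with a promoter summit were then 53.3%, 30.0% and 60.0%, beside 49.3%, 36.9% and 51.9% of all genes. Members thus lay above all genes in Msx2-WT, where they lay below at the main threshold.

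With lists of equal length, Msx2-WT and replicate 2 had 3 and 5 members with a promoter peak, 2 and 2 paternally expressed, 1 and 3 maternally expressed, 2 and 2 germline DMR genes and 6 and 7 with a gene body peak, 2 members (again Igf2r and Zrsr1) had the pattern of both Msx2-KO libraries without Msx2-WT, and the medians were 21.3 and 29.1. Thinned to the shallowest background, they had 3 and 7 members with a promoter peak, 1 and 4 paternally expressed, 1 and 4 germline DMR genes, 5 and 7 with a gene body peak and 3 maternally expressed genes in replicate 2, Igf2r and Zrsr1, 2 members, had the first pattern, and the medians were 14.7 and 25.2. With lists of equal length the members' promoter shares in Msx2-WT and replicate 2 were 10.0% and 16.7%, beside 31.4% and 32.7% of all genes. After thinning they were 10.0% and 23.3%, beside 24.0% and 37.6%. In both settings the members of replicate 2 lay below all genes, whereas they lay above at the main threshold.

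With a window of 500 bases Msx2-WT had 4 members, 2 paternally expressed and 2 germline DMR genes, both patterns held 0 members, and the medians of the Msx2-KO libraries were 24.2 and 15.2. The members' shares were 13.3%, 13.3% and 36.7%, beside 34.7%, 27.5% and 39.4% of all genes. With a window of 3000 bases, or with any overlap of the peak interval, replicate 1 had 10 members, 7 paternally expressed and 7 germline DMR genes, with a median of 45.2. In replicate 1 this was 33.3% of members, beside 32.5% of all genes with that window and 31.1% by overlap. By interval overlap the 2 patterns held 3 (Asb4, Peg10 and Sgce) and 0 members. With starts of the full annotation, chosen after seeing the data, 2 members (Igf2 and Kcnq1, without Impact) had a peak in Msx2-WT alone. Of the 12 member regions open in all libraries, 11 were at least 2-fold higher in both Msx2-KO libraries by tags over library background without the median, and 0 by the deposited fold with or without its median. The number at least 2-fold higher in Msx2-WT was 0 by tags over library background and 0 by the deposited fold, all chosen after seeing the data. Without Ddc, Ube3a and Grb10, 1 maternally expressed gene had a promoter peak in Msx2-WT. Leaving out each Msx2-KO library in turn gave 1 to 9 members with a peak in the remaining Msx2-KO library and not in Msx2-WT, 9 without replicate 1, and 1 to 2 with a peak in Msx2-WT alone, 2 without replicate 2. No paired analysis was possible because the groups share only 1 replicate number and no test was run.

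Of 46 cases in which a member region was open in one library and not in another, tags scaled from the open library reached the lowest passing number by both scalings in 12, and in 15 a summit was listed below the threshold. Elsewhere depth limits what an absent peak shows. Peak counts of the loci rest on the threshold. At a −log10 q of at least 5.0 they were 2, 0 and 0 for H19-Igf2, 1, 2 and 3 for Igf2r-Airn, 1, 1 and 2 for Peg3-Zim1, 4, 4 and 6 for Peg10-Sgce-Asb4, 1, 0 and 0 for Plagl1, 0, 1 and 1 for Grb10-Ddc, 11, 0 and 4 for Snrpn-Ube3a, 0, 0 and 1 for Dlk1-Dio3 and 3, 1 and 3 for the Kcnq1 domain. With every deposited peak they were 10, 1 and 1, then 11, 7 and 10, then 4, 2 and 3, then 43, 10 and 30, then 2, 0 and 2, then 12, 1 and 9, then 100, 30 and 67, then 42, 1 and 18, and 25, 7 and 15 in the same order.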
